A study of Mus musculus with 24 samples.

Results

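The genes of leukotriene synthesis and the leukotriene receptors held 99 of the 184158 consensus ATAC-seq peaks measured in mouse bone marrow-derived macrophages (BMDMs). ATAC-seq cuts accessible DNA with the transposase Tn5, so the number of read pairs over a peak measures how open the chromatin is there. The 9 genes were Alox5, Alox5ap, Ltc4s, Lta4h and Mgst2 for synthesis, and Cysltr1, Cysltr2, Ltb4r1 and Ltb4r2 for the receptors. A peak was taken when it overlapped the body of one of these genes (GENCODE vM21, mm10) or the 20 kb on either side of it, and each peak was given to its nearest member gene. Alox5 and Lta4h held 16 peaks each, Alox5ap 12, Ltc4s, Mgst2 and Cysltr2 11 each, Cysltr1 10, and Ltb4r1 and Ltb4r2 6 each. Of the 99 peaks, 7 covered the start site of a member gene, 6 touched an exon, 27 lay in introns, 31 lay upstream of the gene and 28 downstream. The start site nearest to 22 of the 99 was that of a gene that is no member, and 5 covered such a start site. Sums per gene below take in these peaks, and no sums were made for genes other than the 9. Distances below run from the start site of the gene to the middle of the peak.

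The 24 libraries formed 4 groups of 6, which were unstimulated WT, unstimulated AhR-KO, WT with LPS and AhR-KO with LPS, each library from a different animal of its group, all in 1 experiment. WT cells came from C57BL/6J mice. AhR-KO cells came from mice that lack the aryl hydrocarbon receptor (AhR) in the whole body through the Ahr tm1Bra allele on a B6.129 background, so the marrow progenitors lacked the receptor as well. All cultures were grown from marrow with 10% serum, TGF-β at 2 ng/ml and GM-CSF at 10 ng/ml. The stimulus was 97 EU/ml LPS from day 6 on, for 24 h, followed by 5 µM of the ionophore A23187 over 10 min. The labels attach this treatment to every library, so whether unstimulated cells also met the ionophore is not given. Mice of both sexes were used, with no sex or age given for single libraries. No member gene lies on chromosome 12, which carries Ahr. The allele lacks exon 2 of Ahr and no consensus peak covered that exon, so the deleted part could not be read. The peak over the Ahr start site ran from 20.2 to 24.5 CPM in unstimulated WT, 11.5 to 15.1 in unstimulated AhR-KO, 18.9 to 22.1 in WT with LPS and 11.8 to 16.7 in AhR-KO with LPS, without overlap between genotypes in either treatment.

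Leukotrienes are made from arachidonic acid, which 5-lipoxygenase (Alox5) takes up from its partner FLAP (Alox5ap) and turns into the unstable leukotriene A4. Leukotriene A4 hydrolase (Lta4h) makes leukotriene B4 from it, a chemoattractant for neutrophils that signals through BLT1 (Ltb4r1) and BLT2 (Ltb4r2). Leukotriene C4 synthase (Ltc4s), and in other tissues MGST2 (Mgst2), joins it to glutathione to give the cysteinyl leukotrienes, which constrict airways and act on CysLT1 (Cysltr1) and CysLT2 (Cysltr2). AhR, switched on by ligands in the cytosol, binds DNA together with ARNT at sites with the core GCGTG, and LPS activates macrophages through TLR4.

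The windows below are the middle 300 bases (plus strand, mm10) of some intronic and intergenic peaks on which the results turn, chosen because each differed clearly between genotypes or with LPS. Capitals mark matches on either strand to GCGTG (AhR core), TGANTCA (AP-1), GAGGAAG (a PU.1 core), GGANTTTCC (NF-kB) or TTGCNNAA (C/EBP).
Alox5 intron, 5.2 kb, chr6:116455825-116456124: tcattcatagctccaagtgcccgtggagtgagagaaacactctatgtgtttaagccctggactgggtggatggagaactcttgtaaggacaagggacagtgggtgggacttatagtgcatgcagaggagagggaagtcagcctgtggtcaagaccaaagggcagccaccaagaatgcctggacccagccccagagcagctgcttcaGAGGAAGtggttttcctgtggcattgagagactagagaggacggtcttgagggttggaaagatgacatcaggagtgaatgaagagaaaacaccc
Alox5ap, 4.0 kb upstream, chr5:149260591-149260890: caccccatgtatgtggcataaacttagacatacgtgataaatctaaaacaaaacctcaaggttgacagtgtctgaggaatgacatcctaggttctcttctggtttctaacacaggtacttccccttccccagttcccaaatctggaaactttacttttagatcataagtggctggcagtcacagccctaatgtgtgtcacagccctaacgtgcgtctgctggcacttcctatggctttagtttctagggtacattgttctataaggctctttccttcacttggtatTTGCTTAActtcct
Ltc4s, 13.9 kb upstream, chr11:50252251-50252550: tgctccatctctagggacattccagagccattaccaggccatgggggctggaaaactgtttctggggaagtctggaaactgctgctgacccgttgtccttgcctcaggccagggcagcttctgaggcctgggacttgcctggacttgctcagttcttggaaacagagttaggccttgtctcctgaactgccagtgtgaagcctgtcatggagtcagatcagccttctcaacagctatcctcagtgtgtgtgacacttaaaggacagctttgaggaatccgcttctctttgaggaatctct
Cysltr1 intron, 7.6 kb, chrX:106595933-106596232: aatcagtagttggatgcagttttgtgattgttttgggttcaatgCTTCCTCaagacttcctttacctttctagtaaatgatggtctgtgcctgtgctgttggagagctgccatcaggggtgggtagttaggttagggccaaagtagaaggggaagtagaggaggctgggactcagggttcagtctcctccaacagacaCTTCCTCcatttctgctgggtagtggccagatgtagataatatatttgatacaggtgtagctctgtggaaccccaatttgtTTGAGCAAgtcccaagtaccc
Cysltr2, 31.6 kb downstream of its start site, chr14:73017368-73017667: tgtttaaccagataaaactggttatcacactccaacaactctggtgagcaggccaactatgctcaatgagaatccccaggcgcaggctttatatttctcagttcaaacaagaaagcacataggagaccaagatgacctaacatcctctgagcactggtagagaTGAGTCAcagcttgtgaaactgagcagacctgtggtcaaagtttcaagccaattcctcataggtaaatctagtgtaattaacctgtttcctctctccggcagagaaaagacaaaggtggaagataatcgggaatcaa
The Alox5 window held 1 PU.1 core, the Alox5ap window 1 C/EBP match, the Cysltr1 window 2 PU.1 cores and 1 C/EBP match, and the Cysltr2 window 1 AP-1 match. The Ltc4s window matched none of the 5 motifs. No window printed here held the AhR core, while the start-site peaks of Alox5 and Ltc4s, whose windows are not printed, each held 1 in the middle 300 bases and 4 and 6 over the whole peak. These 2 peaks are long, at 2619 and 3243 bases, beside a median of 669 for the member peaks. Other peaks described below also held the AhR core in their middle 300 bases. Among these were the Lta4h start-site peak and 2 upstream Lta4h peaks that fell with LPS, with 1 each. A weak peak upstream of Mgst2 that rose with LPS held 2. Cores over whole peaks were not counted for all tested peaks.

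Totals over the consensus peaks ranged from 8536838 to 34598345 read pairs per library, with TMM factors of 0.976 to 1.04. Levels are given as CPM, the read pairs of a peak scaled by the TMM-corrected library total to a common total of 1000000, as mean ± SD of 6 libraries. Start-site peaks were present for 5 of 6 macrophage markers (Csf1r, Adgre1, Cd68, Itgam and Mertk, not Spi1) and for 5 of 5 alveolar macrophage markers. None was present for the eosinophil markers Epx and Prg2 or for the T cell marker Cd3e. WT replicate 6 held 2 read pairs without LPS and 0 with LPS over the start sites of 4 Y-linked genes, against 418 to 1915 in the other libraries. Values without replicate 6 are therefore given for Cysltr1, the only member on the X chromosome.

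A peak was called a differentially accessible region (DAR) when edgeR's quasi-likelihood test gave a Benjamini-Hochberg adjusted p of at most 0.05 over 174193 tested peaks and the fold change was at least 1.5. Of the 99 member peaks, 96 had enough counts to be tested. In unstimulated BMDMs, 12 member peaks had a lower level in AhR-KO and 8 a higher one. These counts, of 96 tested, stood beside 12.6% lower and 9.96% higher over all tested peaks. The order over all peaks turned with the scaling, from 22014 lower and 17352 higher with TMM to 19377 and 20698 with RLE size factors and 19775 and 20500 with DESeq2. With LPS, 18 member peaks were lower and 7 higher in AhR-KO, beside 13.1% and 13.4% of all tested peaks. The median log2 difference over the tested member peaks was 0.03 without and −0.12 with LPS, against −0.02 and 0.02 over all tested peaks. By either direction, 20.8% and 26% of the tested member peaks were DARs of genotype, near the 22.6% and 26.5% of all tested peaks. Without LPS, the AhR-KO range lay entirely under the WT range at 13 tested member peaks and entirely over it at 10, beside 11.2% and 9.78% of all tested peaks. With LPS these numbers were 16 and 7, beside 8.96% and 10.6%. The DARs of genotype were unevenly spread over the genes.

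LPS moved more of the member peaks than the genotype did, and mostly downwards. In WT, 29 member peaks fell with LPS and 13 rose, beside 21.6% falling and 25.4% rising over all tested peaks. In AhR-KO, 37 fell and 19 rose, beside 21.5% and 27.3%. In total, 43.8% of the tested member peaks in WT and 58.3% in AhR-KO were DARs of LPS, where all tested peaks gave 47.0% and 48.9%. The median log2 change of the tested member peaks was −0.19 in WT and −0.34 in AhR-KO, against −0.01 and 0.05 over all tested peaks. The WT and AhR-KO comparisons rest on separate libraries, and 27 of the member peaks that fell were shared, 93.1% of those in WT and 73.0% of those in AhR-KO. All 13 that rose in WT also rose in AhR-KO, where they made up 68.4% of the risers. With LPS all 6 libraries lay below all 6 unstimulated ones at 27 member peaks in WT and 38 in AhR-KO, and above them at 9 and 17. Over all tested peaks these shares were 18.3% and 20.6% below, and 20.5% and 24.9% above. No member peak was a DAR in opposite directions. Of the 96 tested, 30 were a DAR in none of these 4 comparisons.

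**Figure D1:**
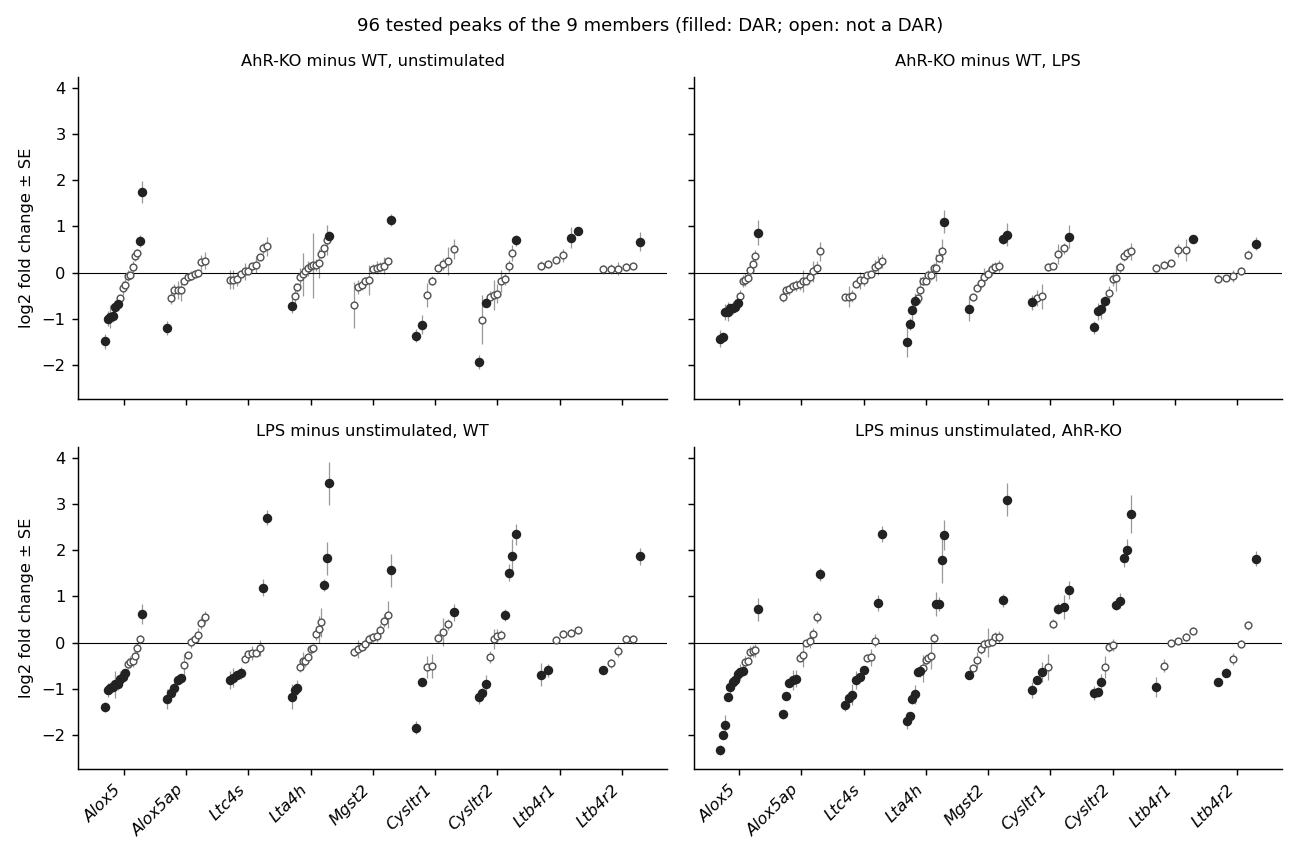
Log2 fold change ± SE of the 96 tested member peaks, by gene on the x axis, for each of 4 comparisons. Filled points are DARs and open points are not. Alox5 holds 6 of the 12 lower DARs without LPS and 8 of the 18 with LPS.

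Alox5, which encodes the enzyme that starts leukotriene synthesis, was the member with the most peaks that lost accessibility in AhR-KO. Of its 16 peaks, 6 were lower and 2 higher in unstimulated AhR-KO cells, and 8 were lower and 1 higher with LPS. In either direction these were 50% and 56.2% of the 16, beside 22.6% and 26.5% of all tested peaks. LPS lowered 9 and raised 1 in WT, and lowered 10 and raised 1 in AhR-KO. These were 62.5% and 68.8% of the 16, beside 47.0% and 48.9% of all tested peaks. The median log2 difference over the 16 peaks was −0.30 without and −0.58 with LPS for genotype, and −0.71 in WT and −0.66 in AhR-KO for LPS. Summed over all 16 peaks, the level was 142.9 ± 4.89 CPM in unstimulated WT and 122.4 ± 5.10 in unstimulated AhR-KO. With LPS the sums were 92.5 ± 7.22 and 60.1 ± 3.65 CPM, 1.54-fold lower in AhR-KO. In each of the 4 comparisons the sums of the groups did not overlap.

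The peak over the Alox5 start site (chr6:116458723-116461341) also covers the beginning of the gene. Its level in unstimulated WT ran from 36.8 to 45.4 CPM (median 40.8), and in unstimulated AhR-KO from 26.7 to 29.2 (median 27.6). With LPS it ran from 17.2 to 23.9 CPM (median 20.8) in WT and from 10.9 to 13.4 (median 12.2) in AhR-KO. The 4 groups thus formed an order without overlap between neighbors, from unstimulated WT down to AhR-KO with LPS. With LPS the AhR-KO level was lower, at a log2 difference of −0.77 ± 0.07 (adjusted p = 4.79e-11, SE after ±). In unstimulated cells it was −0.55 ± 0.07 (adjusted p = 1.42e-08), which is 1.47-fold and below the fold threshold, and −0.59 and a DAR without replicate 5 in all groups. LPS lowered the peak by 0.97 in WT (log2 change −0.97 ± 0.07, adjusted p = 2.22e-15) and by 1.18 in AhR-KO (−1.18 ± 0.07, adjusted p = 1.86e-17). The difference between the genotype effects was −0.22 ± 0.09 (adjusted p = 0.117).

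The 250 bases upstream of the RefSeq start of Alox5 (GRCm38.p6, chr6:116461179-116461428, minus strand), which this peak overlaps in part, held none of the 5 motifs named above. The peak as a whole held 4 AhR cores, 1 AP-1 match and 4 PU.1 cores, of which 1 AhR core and 1 PU.1 core lay in its middle 300 bases. The GC box GGGCGG, searched after the data were seen, matched once and is in capitals.
Alox5, upstream of the start: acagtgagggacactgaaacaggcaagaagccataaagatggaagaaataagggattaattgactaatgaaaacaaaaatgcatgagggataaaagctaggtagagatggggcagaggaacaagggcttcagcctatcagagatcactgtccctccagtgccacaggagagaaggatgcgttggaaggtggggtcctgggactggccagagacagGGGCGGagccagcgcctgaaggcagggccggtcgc
Over the 32851 RefSeq promoter windows of 300 bases, 32.7% held a GC box and 28.2% the AhR core. These windows are longer than the 250 bases printed for Alox5, so the shares are not for a like length.

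A strong intronic peak 5.2 kb into Alox5 (chr6:116455634-116456315) differed between genotypes with LPS and not detectably without it. Unstimulated levels ran from 29.8 to 34 CPM (median 31.7) in WT and from 29 to 33 (median 30.2) in AhR-KO. After LPS they ran from 17.2 to 22.1 CPM (median 20.3) in WT and from 7.03 to 8.62 (median 7.39) in AhR-KO. The unstimulated groups overlapped, and with LPS all 6 AhR-KO libraries lay far below the lowest WT library. The log2 genotype difference was −0.05 ± 0.06 without LPS (adjusted p = 0.514), against −1.39 ± 0.07 with LPS (adjusted p = 2.13e-17). The test of the difference between these effects gave −1.34 ± 0.09 (adjusted p = 3.41e-12). LPS lowered the peak 1.59-fold in WT and 4.01-fold in AhR-KO.

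Another intronic peak, 9.0 kb into the gene (chr6:116451924-116452447), was at 8.15 ± 1.40 CPM in unstimulated WT and 10.9 ± 1.16 in unstimulated AhR-KO. With LPS it was at 3.08 ± 0.229 in WT and 2.16 ± 0.215 in AhR-KO. LPS lowered it in both genotypes, with log2 changes of −1.40 ± 0.11 in WT and −2.33 ± 0.11 in AhR-KO. The genotype effects with and without LPS differed by −0.93 ± 0.16 (adjusted p = 8.86e-05), although neither genotype difference alone reached the fold threshold.

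The peak 30 kb into Alox5 was lower in AhR-KO in both treatments. It ran from 2.90 to 4.50 CPM (median 3.48) in unstimulated WT and from 1.10 to 1.59 (median 1.27) in unstimulated AhR-KO. With LPS it ran from 1.17 to 2.18 CPM (median 1.92) in WT and from 0.429 to 0.901 (median 0.679) in AhR-KO. Every AhR-KO library lay below every WT library of the same treatment. The log2 genotype differences were −1.49 ± 0.16 (adjusted p = 2.43e-09) and −1.44 ± 0.18 (adjusted p = 4.31e-08). MACS2 called a broad peak there in 6, 4, 5 and 0 of the 6 libraries of the 4 groups, in the order unstimulated WT, unstimulated AhR-KO, WT with LPS and AhR-KO with LPS.

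Of the peaks not chosen by the rule for named peaks, 4 more, at 1.5 kb upstream and at 33.1, 37.7 and 43.4 kb downstream of the start, were lower in AhR-KO in both treatments, with log2 differences from −0.65 to −1.0. The 43.4 kb peak, the highest of these, was at 11.2 ± 1.67 CPM in unstimulated WT and 6.97 ± 0.484 in unstimulated AhR-KO, with no overlap. A weak peak 11.4 kb into the gene (chr6:116449233-116450385) was at 1.98 ± 0.474 and 1.03 ± 0.194 CPM without LPS, and at 3.10 ± 0.489 and 1.74 ± 1.02 with LPS, in WT and AhR-KO. It was the only Alox5 peak that rose with LPS, by 0.61 in WT and 0.72 in AhR-KO (log2). The rise in AhR-KO rested on AhR-KO LPS replicate 3, without which it was 0.38 and no DAR (0.36 without replicate 3 in all groups). The rise in WT was 0.54 to 0.58 and no DAR without WT LPS replicate 6, without WT unstimulated replicate 2, 3 or 5, or without replicate 2 in all groups.

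Against this direction, a weak peak 16 kb into the gene (chr6:116445036-116445298) was higher in unstimulated AhR-KO. Its levels there ran from 1.31 to 2.00 CPM (median 1.56), against 0.229 to 0.749 (median 0.395) in unstimulated WT. The log2 difference was 1.74 ± 0.23 (adjusted p = 1.72e-07), and MACS2 called it in all 6 unstimulated AhR-KO libraries and in none of the other 18. LPS lowered it in AhR-KO to 0.452 ± 0.120 CPM, a log2 change of −1.79 ± 0.22. It also fell in WT (−0.91), which was −0.69 and −0.65 and no DAR without WT unstimulated replicate 3 and without replicate 3 in all groups. With LPS the peak was still higher in AhR-KO (log2 difference 0.86), which was 0.61 and no DAR without replicate 1 in all groups. The interaction of −0.88 was no DAR, and became one at −1.1 without WT unstimulated replicate 3. A peak 55.3 kb downstream of the start, within the neighboring gene March8, was also higher in unstimulated AhR-KO (5.88 ± 0.560 against 3.59 ± 0.782 CPM).

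**Figure D2:**
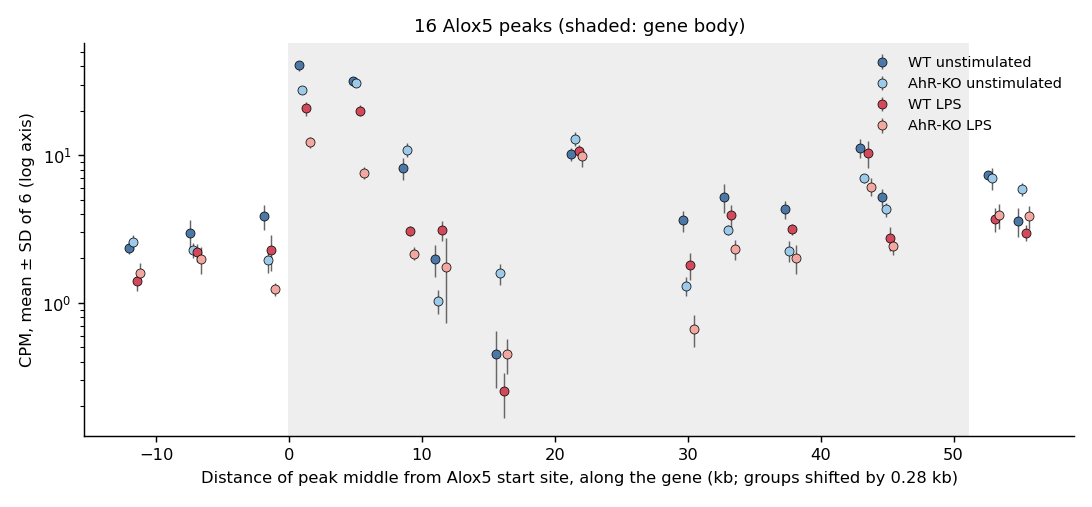
Level of the 16 Alox5 peaks (CPM on a log axis, mean ± SD of 6 libraries) against distance of the peak middle from the start site in kb, with the gene body shaded. The start-site peak falls from 40.5 CPM in unstimulated WT to 12.2 in AhR-KO with LPS, and the peak at 5.2 kb separates the genotypes with LPS.

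Markers of mast cells, which also make leukotrienes, and of dendritic cells were read in the same libraries. Of the mast cell and basophil markers, 2 of 5 had a start-site peak (Kit and Gata2), while Cpa3, Ms4a2 and Mcpt8 had none. Their summed level ran from 17.5 to 23.9 CPM in unstimulated WT and 11.2 to 14.1 in unstimulated AhR-KO, and from 21.2 to 28.6 and 12.7 to 16.8 with LPS. Without LPS, in WT and AhR-KO, Kit was at 11 ± 1.33 and 4.78 ± 0.496 CPM and Gata2 at 9.10 ± 0.975 and 8.03 ± 0.734 CPM. The dendritic cell markers Flt3, Zbtb46 and Ccr7 all had one, and Flt3 was at 9.04 ± 2.11 CPM in unstimulated WT and 4.08 ± 0.605 in unstimulated AhR-KO. In the same libraries Zbtb46 was at 22.4 ± 1.55 and 26.5 ± 1.84 CPM, and Ccr7 at 0.938 ± 0.364 and 0.550 ± 0.126. The summed level of these dendritic cell markers ran from 26.7 to 35.4 and 28.1 to 33.7 CPM without LPS, and from 29.1 to 46.0 and 22.1 to 28.4 with LPS. Of the neutrophil markers, Camp had a start-site peak and Ly6g, Elane and Mpo had none. Camp ran from 11.4 to 18.5 CPM in unstimulated WT and 10.9 to 13.4 in unstimulated AhR-KO, and from 20.8 to 30.8 and 26.9 to 32.4 with LPS. The summed macrophage markers ran higher in unstimulated AhR-KO (111.6 to 150.3 CPM) than in unstimulated WT (96.6 to 106.5), and from 90.2 to 100.1 CPM in WT and 85.1 to 115.7 in AhR-KO with LPS, where they overlapped. The summed alveolar macrophage markers ran from 45.6 to 57.2 CPM in unstimulated WT and 59.9 to 75.9 in unstimulated AhR-KO without overlap, and from 33.8 to 43.5 and 38.9 to 47.6 with LPS. The part of these shifts in the Alox5 and other member differences was not tested, and in bulk libraries fewer cells of a type and less open chromatin per cell cannot be told apart.

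Alox5ap, which encodes FLAP, showed little difference between genotypes and clear losses with LPS. Of its 12 peaks, 1 was lower in unstimulated AhR-KO and none differed as a DAR with LPS. Over all tested peaks, 22.6% and 26.5% were DARs of genotype. The sum over the 12 peaks was 221.7 ± 5.53 CPM in unstimulated WT and 207.0 ± 11.4 in unstimulated AhR-KO, and 174.5 ± 10.8 and 150.1 ± 7.96 with LPS, and the genotypes overlapped in both treatments. Under plain scaling to the total count the genotypes with LPS did not overlap. LPS lowered 5 in WT, and lowered 5 and raised 1 in AhR-KO. These were 41.7% and 50% of the 12, beside 47.0% and 48.9% of all tested peaks. The start-site peak (chr5:149264481-149265352) ran from 26.8 to 30.3 CPM (median 28) in unstimulated WT, 22.5 to 26.6 (median 24.5) in unstimulated AhR-KO, 14.8 to 18.9 (median 16) in WT with LPS and 10.9 to 15.5 (median 13.7) in AhR-KO with LPS. It fell with LPS in both genotypes without overlap, by a log2 change of −0.76 ± 0.07 in WT and −0.87 ± 0.07 in AhR-KO. The genotype differences at the start site were −0.19 ± 0.07 (adjusted p = 0.0335) and −0.30 ± 0.07 (adjusted p = 0.00132), 1.14-fold and 1.23-fold.

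The peak 4.0 kb upstream of Alox5ap (chr5:149260406-149261074) was the exception. It ran from 3.37 to 5.80 CPM (median 5.01) in unstimulated WT and from 1.67 to 2.47 (median 2.10) in unstimulated AhR-KO, a log2 difference of −1.2 ± 0.14 (adjusted p = 1.67e-08). With LPS it ran from 5.56 to 8.38 CPM (median 7.30) in WT and from 4.62 to 7.70 (median 5.57) in AhR-KO, and the groups overlapped (−0.28 ± 0.12, adjusted p = 0.0526). It rose with LPS by 1.48 ± 0.14 (log2) in AhR-KO. The change in WT was 0.55 ± 0.13, 1.47-fold, and it was 0.59 to 0.67 and a DAR without WT LPS replicate 1 or 4, WT unstimulated replicate 1, or replicate 1 or 4 in all groups. The genotype effects differed by 0.92 ± 0.19 (adjusted p = 0.000794). MACS2 called it in 5 of 6 unstimulated WT libraries, in 0 of 6 unstimulated AhR-KO libraries and in all 12 LPS libraries. Further upstream, at 18 kb (chr5:149245533-149247982), a strong peak fell with LPS from 48.0 ± 2.40 to 27.3 ± 2.17 CPM (WT) and from 47.3 ± 3.19 to 21 ± 1.45 (AhR-KO). An exonic peak at 7.9 kb fell from 25.8 ± 1.5 to 12 ± 1.82 CPM (WT) and from 24.5 ± 2.66 to 8.32 ± 1.54 (AhR-KO).

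Ltc4s, the synthase of the cysteinyl leukotrienes, had no genotype DAR among its 11 peaks in either treatment. Over all tested peaks, 22.6% without and 26.5% with LPS were DARs of genotype. The log2 genotype difference at the peak 13.9 kb upstream with LPS was −0.51 ± 0.13, which became a DAR when replicate 3 was left out of WT with LPS (−0.60), of AhR-KO with LPS (−0.62) or of all groups (−0.70). Its interaction of −0.36 ± 0.25 also became a DAR, at −0.67, without replicate 3 in all groups. LPS lowered 4 and raised 2 of the 11 peaks in WT, and lowered 6 and raised 2 in AhR-KO. These were 54.5% and 72.7% of the 11, beside 47.0% and 48.9% of all tested peaks. One peak covered the start site and the whole short gene (chr11:50236412-50239654). It ran from 67.9 to 81.8 CPM (median 72.3) in unstimulated WT and from 62.7 to 86.4 (median 69.9) in unstimulated AhR-KO, and these groups overlapped. With LPS it ran from 42.6 to 53.1 CPM (median 44.2) in WT and from 29 to 35.3 (median 30.8) in AhR-KO, without overlap. The log2 genotype difference was −0.03 ± 0.07 without LPS (adjusted p = 0.800), against −0.52 ± 0.07 with LPS (adjusted p = 1.38e-07), which is 1.44-fold and so not a DAR. The genotype effects differed by −0.50 ± 0.10 (adjusted p = 0.000522), also under the fold threshold. LPS lowered the peak 1.62-fold in WT and 2.29-fold in AhR-KO. The sum over the 11 peaks with LPS was 111.2 ± 6.17 CPM (WT) and 91.2 ± 3.87 CPM (AhR-KO), without overlap.

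The peak 13.9 kb upstream of Ltc4s (chr11:50251916-50252885) went the other way. It ran from 1.16 to 1.74 CPM (median 1.39) in unstimulated WT and from 0.788 to 1.51 (median 1.39) in unstimulated AhR-KO. After LPS it ran from 6.59 to 12 CPM (median 9.36) in WT and from 4.91 to 9.28 (median 6.53) in AhR-KO. LPS raised it 6.55-fold in WT (log2 change 2.71 ± 0.17, adjusted p = 3.48e-16) and 5.12-fold in AhR-KO (2.36 ± 0.17, adjusted p = 8.94e-15), while the start-site peak of the same gene fell. MACS2 called it in 3 of the 12 unstimulated and in all 12 LPS libraries. A peak 11.2 kb downstream of the Ltc4s start, inside Mgat4b, was at 5.20 ± 0.621, 7.43 ± 0.899, 3.24 ± 0.553 and 2.89 ± 0.603 CPM in unstimulated WT, unstimulated AhR-KO, WT with LPS and AhR-KO with LPS. Its genotype effects differed by −0.70 ± 0.18 (adjusted p = 0.00564).

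Lta4h, which directs the pathway to leukotriene B4, had a higher summed level in unstimulated AhR-KO cells. Over its 16 peaks the summed level was 126.4 ± 3.11 CPM in unstimulated WT and 155.0 ± 8.80 in unstimulated AhR-KO, without overlap. With LPS the sums were 102.2 ± 3.65 and 97.8 ± 3.04 CPM and overlapped. Of the 15 tested peaks, 1 was lower and 1 higher without LPS, and 4 were lower and 1 higher with LPS. In either direction these were 13.3% and 33.3% of the 15, beside 22.6% and 26.5% of all tested peaks. LPS lowered 3 and raised 3 in WT, and lowered 6 and raised 4 in AhR-KO. These were 40% and 66.7% of the 15, beside 47.0% and 48.9% of all tested peaks. The start-site peak (chr10:93451921-93453884) was at 45.3 ± 2.38, 50.3 ± 2.97, 36.6 ± 1.25 and 32.4 ± 1.16 CPM in unstimulated WT, unstimulated AhR-KO, WT with LPS and AhR-KO with LPS. It fell with LPS in AhR-KO (log2 change −0.63 ± 0.05, adjusted p = 4.90e-14). In WT the change of −0.31 ± 0.05 was 1.24-fold.

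The peak 6.0 kb upstream of Lta4h (chr10:93446938-93447792) was higher in AhR-KO without LPS. It ran from 4.88 to 6.32 CPM (median 5.76) in unstimulated WT and from 8.02 to 11.3 (median 9.98) in unstimulated AhR-KO, without overlap (log2 difference 0.79 ± 0.10, adjusted p = 3.54e-08). With LPS the groups overlapped at 3.98 ± 0.339 and 4.25 ± 0.483 CPM. The genotype effects differed by −0.70 ± 0.14 (adjusted p = 0.000850). A stronger peak 8.8 kb upstream was at 24.1 ± 2.02 and 31.8 ± 2.59 CPM without LPS and at 11.9 ± 1.59 and 10.4 ± 0.787 with LPS, and LPS lowered it 2.03-fold in WT and 3.04-fold in AhR-KO. Its interaction lay just under the fold threshold and passed it in 14 of the 30 fits that left out libraries. At 17.7 kb upstream, a weak peak fell with LPS in both genotypes and had an interaction of −0.71 ± 0.24 (adjusted p = 0.0419) that was lost in 18 of the 30 fits that left out libraries, with values from −0.56 to −0.84 over the 30.

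Some weak peaks around Lta4h also differed. In the intron at 7.6 kb, a peak went from 0.388 ± 0.123 CPM in WT with LPS to 0.836 ± 0.201 in AhR-KO with LPS (log2 difference 1.10 ± 0.25, adjusted p = 0.000386). Downstream peaks within the neighboring gene Hal, the histidine ammonia-lyase, rose with LPS. The peak at 47.3 kb (chr10:93499932-93501451) went from 1.82 ± 0.214 to 4.32 ± 0.561 CPM (WT) and from 1.12 ± 0.225 to 1.99 ± 0.295 (AhR-KO). It was lower in AhR-KO in both treatments (log2 differences −0.72 ± 0.16 and −1.12 ± 0.13), with no overlap with LPS. The peak at 42.3 kb rose from 0.199 ± 0.0827 to 0.713 ± 0.343 CPM (WT) and from 0.190 ± 0.0392 to 0.993 ± 0.301 (AhR-KO). These peaks are nearer to Hal than to Lta4h, and which gene they bear on was not tested.

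Mgst2, the microsomal glutathione transferase, was the synthesis gene that LPS moved least, with 1 of its 11 peaks raised in WT and 2 raised and 1 lowered in AhR-KO. These were 9.09% and 27.3% of the 11, beside 47.0% and 48.9% of all tested peaks. The Mgst2 start-site peak (chr3:51660828-51664028) ran from 34.3 to 42.7 CPM (median 36.6) in unstimulated WT and from 41.9 to 46.5 (median 45.4) in unstimulated AhR-KO. The range with LPS was from 29.1 to 39.1 CPM (median 34.6) in WT and from 24.2 to 30.5 (median 27.3) in AhR-KO. The medians of the genotypes thus stood in opposite order without and with LPS, with overlap in both. The genotype effects differed by −0.60 ± 0.09 (adjusted p = 3.21e-05). This lay just past the fold threshold and dropped under it, to between −0.56 and −0.58, without WT LPS replicate 3 or 5, AhR-KO LPS replicate 3 or 4, or replicate 3 in all groups. LPS lowered the peak in AhR-KO (log2 change −0.70 ± 0.07), and the change in WT was −0.11 ± 0.07 (adjusted p = 0.156).

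At 36.9 kb from the Mgst2 start, within an exon of Maml3 (chr3:51697842-51698383), a peak was higher in AhR-KO in both treatments. It ran from 1.71 to 2.57 CPM (median 2.01) in unstimulated WT and from 3.78 to 5.84 (median 4.54) in unstimulated AhR-KO. After LPS it ran from 2.19 to 3.28 CPM (median 2.49) and from 3.71 to 4.69 (median 4.23). The genotypes did not overlap in either treatment (log2 differences 1.13 ± 0.13 and 0.73 ± 0.12). A weak peak 5.3 kb upstream of Mgst2 rose with LPS from 0.204 ± 0.0983 to 0.672 ± 0.128 CPM (WT) and from 0.140 ± 0.104 to 1.2 ± 0.527 (AhR-KO). With LPS it was higher in AhR-KO (log2 difference 0.82 ± 0.26), which fell short of a DAR at 0.57 without AhR-KO LPS replicate 3, and 0.51 without replicate 3 in all groups. A weak peak 21.9 kb downstream of the start was lower in AhR-KO with LPS (0.612 ± 0.180 in WT against 0.349 ± 0.152 CPM). This call, a log2 difference of −0.78, was lost at −0.57 to −0.72 without WT LPS replicate 6, AhR-KO LPS replicate 5, or replicate 2, 5 or 6 in all groups.

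**Figure D3:**
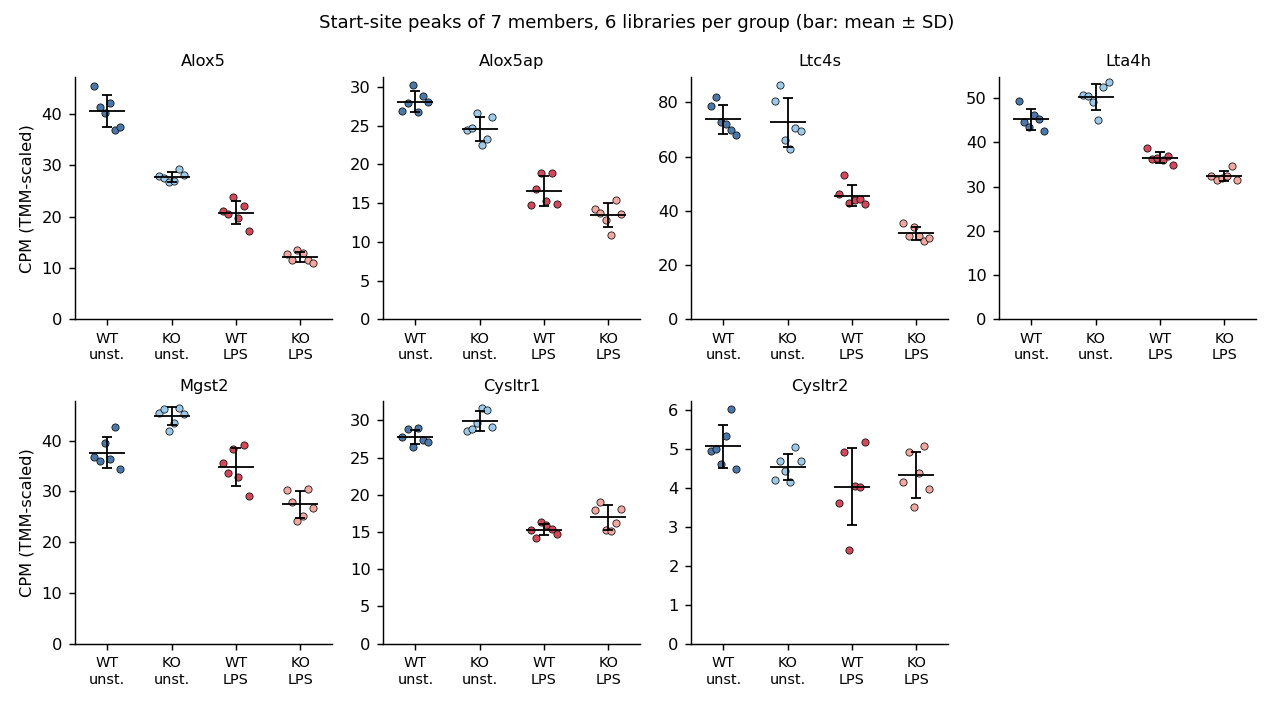
Level of the start-site peaks of the 7 members that have one (CPM), as 6 libraries per group with mean ± SD. The Alox5 peak separates all 4 groups, and the Ltc4s peak separates the genotypes with LPS only. LPS libraries lie entirely below unstimulated ones at 5 of the 7 peaks in WT and 6 in AhR-KO, Cysltr1 among them.

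Of the 7 start-site peaks, none was a genotype DAR without LPS and 1, that of Alox5, was lower with LPS. LPS lowered 4 of them in WT (Alox5, Alox5ap, Ltc4s and Cysltr1) and 6 in AhR-KO, the exception being Cysltr2. None rose. Shares over the start-site peaks of all genes were not computed, so these counts have no like value beside them. Across the 65 tested peaks of the 5 synthesis genes, LPS lowered 21 and raised 7 in WT, and lowered 28 and raised 10 in AhR-KO. Across the 31 tested peaks of the 4 receptors, LPS lowered 8 and raised 6 in WT, and lowered 9 and raised 9 in AhR-KO. Over all tested peaks, 21.6% fell and 25.4% rose in WT, and 21.5% and 27.3% in AhR-KO. In either direction, DARs made up 43.1% of the synthesis and 45.2% of the receptor peaks in WT, beside 47.0% of all tested peaks. In AhR-KO these shares were 58.5% and 58.1%, beside 48.9%.

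Cysltr1, the receptor for leukotriene D4 on airway muscle and leukocytes, had 8 tested peaks, of which 2 were lower in unstimulated AhR-KO, and 1 was lower and 1 higher with LPS. In each treatment this was 25% of the 8, near the 22.6% without and 26.5% with LPS of all tested peaks. The start-site peak (chrX:106602487-106603998) ran from 26.5 to 28.9 CPM (median 27.6) in unstimulated WT and from 28.5 to 31.6 (median 29.4) in unstimulated AhR-KO. The range with LPS was from 14.2 to 16.3 CPM (median 15.4) and from 15.1 to 19.1 (median 17). LPS lowered it in both genotypes without overlap, 1.81-fold in WT and 1.76-fold in AhR-KO. The log2 genotype differences were 0.11 ± 0.06 (adjusted p = 0.155) and 0.15 ± 0.06 (adjusted p = 0.0451). Without replicate 6 in all groups the LPS changes were −0.84 in both genotypes.

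An intronic peak 7.6 kb into Cysltr1 (chrX:106595824-106596340), which the model gene Gm5127 also spans, was lower in AhR-KO. It ran from 3.26 to 4.60 CPM (median 4.21) in unstimulated WT and from 1.35 to 1.88 (median 1.54) in unstimulated AhR-KO, without overlap. After LPS it ran from 0.897 to 1.35 CPM (median 1.13) in WT and from 0.541 to 1.0 (median 0.726) in AhR-KO, and the groups overlapped. The log2 genotype difference was −1.37 ± 0.14 without LPS (adjusted p = 1.11e-09), against −0.56 ± 0.17 with LPS (adjusted p = 0.00744), the latter 1.47-fold. The genotype effects differed by 0.82 ± 0.23 (adjusted p = 0.0118). Without replicate 6 in all groups the unstimulated difference was −1.34 (adjusted p = 1.07e-07) and the interaction 0.77 (adjusted p = 0.0478), and the difference with LPS was −0.57 and no DAR. Without replicate 2 in all groups the interaction was 0.71 and no DAR (adjusted p = 0.0748). The difference with LPS became a DAR, at −0.60 to −0.65, without WT LPS replicate 2, 3 or 4, AhR-KO LPS replicate 1 or 6, or replicate 1 or 2 in all groups. LPS lowered the peak 3.59-fold in WT and 2.04-fold in AhR-KO.

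The peak 18.9 kb upstream of Cysltr1 (chrX:106622225-106623009) was at 2.26 ± 0.873 and 1.04 ± 0.160 CPM in unstimulated WT and AhR-KO, without overlap, and at 3.60 ± 0.945 and 2.29 ± 0.327 with LPS. The log2 genotype difference without LPS was −1.13 ± 0.21 (adjusted p = 3.82e-05), and −1.18 without replicate 6 in all groups. With LPS it was −0.65 ± 0.17, which dropped to −0.57 and lost the call without WT LPS replicate 2 or without WT LPS replicate 6, and was −0.63 and kept (adjusted p = 0.00637) without replicate 6 in all groups. Its rise with LPS in WT, 0.65, was 0.57 to 0.58 and no DAR without WT LPS replicate 2 or 6 or WT unstimulated replicate 6, and 0.50 without replicate 6 in all groups. The intronic peak at 12.7 kb rose with LPS in AhR-KO from 4.04 ± 0.645 to 6.71 ± 0.538 CPM (log2 change 0.73 ± 0.12, and 0.72 without replicate 6 in all groups). The exonic peak at 25.2 kb was higher in AhR-KO with LPS (0.919 ± 0.327 against 0.530 ± 0.208 CPM), which was 0.56 on the log2 scale and no DAR without replicate 6 in all groups, 0.60 without replicate 1 in all groups and 0.62 without AhR-KO LPS replicate 6.

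Cysltr2 encodes the other receptor of the cysteinyl leukotrienes, known from endothelium and eosinophils. Its start-site peak (chr14:73048870-73049909) was low and differed by no DAR in any comparison, at 5.07 ± 0.558, 4.54 ± 0.341, 4.03 ± 0.989 and 4.34 ± 0.593 CPM in unstimulated WT, unstimulated AhR-KO, WT with LPS and AhR-KO with LPS. The peaks away from the start site moved more. Of the 11 peaks, 2 were lower and 1 higher in unstimulated AhR-KO and 4 were lower with LPS, while LPS lowered 3 and raised 4 in WT, and lowered 3 and raised 5 in AhR-KO. For genotype these were 27.3% and 36.4% of the 11, beside 22.6% and 26.5% of all tested peaks. For LPS they were 63.6% in WT and 72.7% in AhR-KO, beside 47.0% and 48.9%.

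The peak 31.6 kb downstream of the Cysltr2 start (chr14:73017228-73017807), beyond the end of the gene, had the largest unstimulated genotype difference of all tested member peaks. It ran from 3.60 to 6.72 CPM (median 4.87) in unstimulated WT and from 0.980 to 2.00 (median 1.16) in unstimulated AhR-KO. The range with LPS was from 4.55 to 6.21 CPM (median 5.59) in WT and from 1.89 to 2.84 (median 2.47) in AhR-KO. The genotypes did not overlap in either treatment. The log2 differences were −1.94 ± 0.16 without LPS (adjusted p = 4.49e-12), against −1.19 ± 0.14 with LPS (adjusted p = 9.82e-09). The genotype effects differed by 0.76 ± 0.21 (adjusted p = 0.0130), which was 0.59 and no longer a call without replicate 1 in all groups, and 0.66 without replicate 4. LPS raised it in AhR-KO (log2 change 0.91 ± 0.17), and the change in WT was 0.15 ± 0.13 (adjusted p = 0.327).

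A pair of neighboring downstream peaks rose with LPS in both genotypes. The peak at 27.7 kb rose from 1.45 ± 0.245 to 4.12 ± 1.12 CPM (WT) and from 1.04 ± 0.224 to 3.74 ± 0.819 (AhR-KO). The peak at 34.7 kb rose from 0.380 ± 0.0563 to 2.00 ± 0.423 CPM (WT) and from 0.269 ± 0.111 to 1.12 ± 0.354 (AhR-KO), and with LPS it was lower in AhR-KO (log2 difference −0.84 ± 0.18). Within the Cysltr2 intron, the peak at 7.3 kb (chr14:73041486-73042129) fell with LPS 2.13-fold in WT and 2.10-fold in AhR-KO. It was also lower in AhR-KO in both treatments (8.49 ± 1.32 against 5.43 ± 0.841 CPM, and 4.0 ± 0.274 against 2.59 ± 0.214). The unstimulated log2 difference was −0.58 and no DAR without WT unstimulated replicate 1 or without replicate 1 or 2 in all groups, and that with LPS was −0.58 and no DAR without replicate 2 in all groups. The peak 7.7 kb upstream of Cysltr2 was higher in unstimulated AhR-KO without overlap, at 7.31 ± 0.321 against 4.54 ± 0.402 CPM (log2 difference 0.70 ± 0.11).

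**Figure D4:**
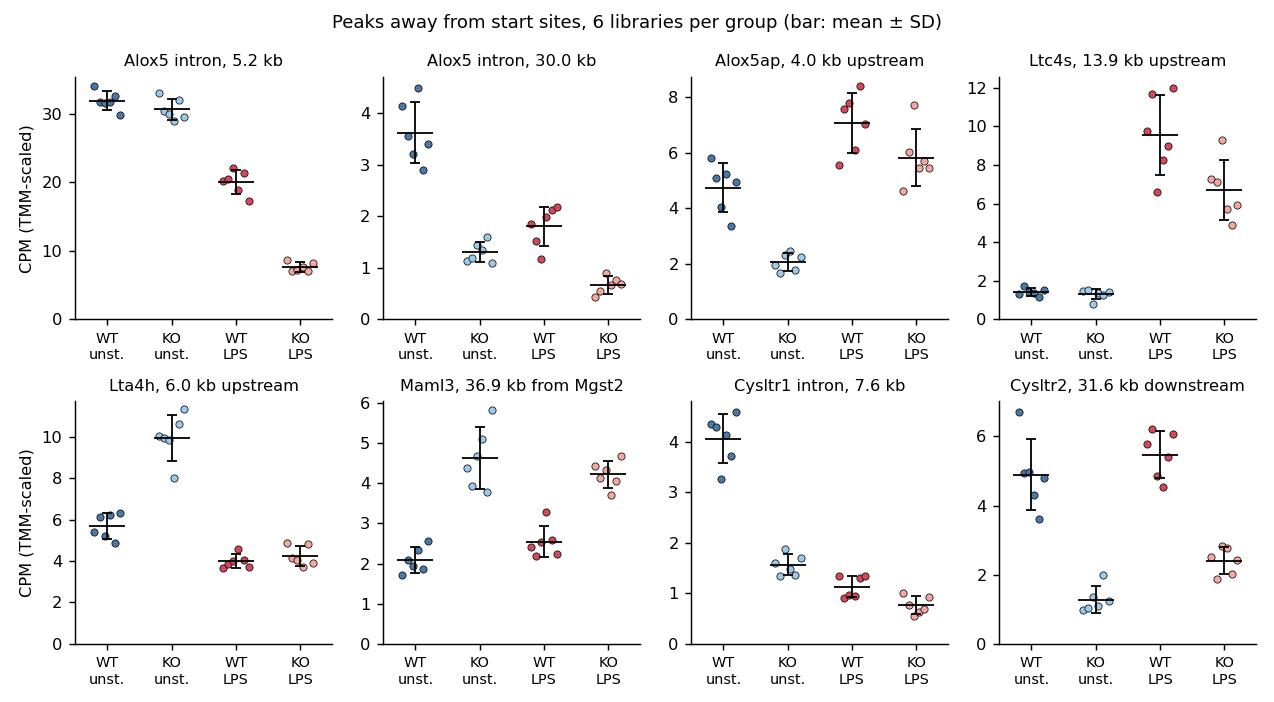
Level of 8 peaks away from start sites (CPM), as 6 libraries per group with mean ± SD. The Alox5 peak at 5.2 kb separates the genotypes with LPS only, the Ltc4s peak rises with LPS in both genotypes, and the Cysltr2 peak is lower in AhR-KO in both treatments.

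Ltb4r1 and Ltb4r2, the leukotriene B4 receptors, lie next to each other on chromosome 14, and no consensus peak covered the start site of either. Of the 6 Ltb4r1 peaks, 2 were higher in unstimulated AhR-KO and 1 with LPS, and none was lower. These were 33.3% and 16.7% of the 6, beside 22.6% and 26.5% of all tested peaks in either direction. The sum over the 6 peaks was 41.2 ± 1.95 CPM in unstimulated WT and 55.4 ± 2.69 in unstimulated AhR-KO, and 45.6 ± 1.82 and 57.9 ± 3.17 with LPS, without overlap between genotypes. This sum includes the peaks within Adcy4 named below. The strongest peak that was higher, 12 kb downstream of the Ltb4r1 start and within an exon of Adcy4 (chr14:55776926-55778953), ran from 8.89 to 12.3 CPM (median 10.1) in unstimulated WT and from 17.3 to 20.5 (median 19.2) in unstimulated AhR-KO. After LPS it ran from 10.4 to 12.9 CPM (median 11.9) in WT and from 18.4 to 21.1 (median 19.3) in AhR-KO. The genotypes did not overlap in either treatment, and LPS gave no DAR in either genotype. The log2 genotype differences were 0.91 ± 0.07 without LPS (adjusted p = 3.61e-12), against 0.73 ± 0.07 with it (adjusted p = 1.54e-10). The peak is nearer to Adcy4, an adenylyl cyclase, than to Ltb4r1. Weak peaks at 6.3 and 8.0 kb, also within Adcy4, fell with LPS in WT from 2.24 ± 0.443 to 1.42 ± 0.290 CPM and from 0.867 ± 0.421 to 0.561 ± 0.106 CPM. At 6.3 kb the log2 change of −0.61 was −0.44 to −0.58 and no DAR without WT LPS replicate 3 or 5, WT unstimulated replicate 5, or replicate 3 or 5 in all groups. At 8.0 kb the WT change was −0.70. It was −0.48 to −0.56 and no DAR without WT unstimulated replicate 4 or replicate 1 or 4 in all groups. LPS lowered the 8.0 kb peak in AhR-KO as well, with a log2 change of −0.97. This call held in all 30 fits that left out libraries. At 6.3 kb the AhR-KO change of −0.50 lay under the fold threshold. The 8.0 kb peak was also 1 of the 2 that were higher in unstimulated AhR-KO. Its log2 difference there was 0.76, and that call held in all 30 fits too. With LPS the difference was 0.49, under the fold threshold in the full fit.

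The peak over the Ltb4r2 exon at 2.2 kb (chr14:55762324-55764881) covers most of this short gene. It was at 26.2 ± 0.996, 29 ± 2.11, 17.4 ± 1.18 and 16 ± 2.24 CPM in unstimulated WT, unstimulated AhR-KO, WT with LPS and AhR-KO with LPS. It fell with LPS in AhR-KO (log2 change −0.86 ± 0.07, adjusted p = 4.38e-13). In WT the change of −0.59 ± 0.07 lay at the fold threshold and was −0.55 to −0.58 and no DAR without WT LPS replicate 1 or 4, WT unstimulated replicate 1 or 5, AhR-KO LPS replicate 3, or replicate 1 or 4 in all groups. The peak 19.5 kb upstream of Ltb4r2, within Dhrs1, rose with LPS from 0.785 ± 0.212 to 2.96 ± 0.278 CPM (WT) and from 1.29 ± 0.377 to 4.57 ± 0.956 (AhR-KO). It was higher in AhR-KO in both treatments (log2 differences 0.67 ± 0.21 and 0.62 ± 0.14). The first was 0.56 to 0.58 and no DAR without AhR-KO unstimulated replicate 6 or replicate 3 in all groups. The second was 0.53 to 0.58 and no DAR without WT LPS replicate 4, AhR-KO LPS replicate 3, or replicate 3 or 4 in all groups.

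Across the members, 9 of the 96 tested peaks (9.38%) had a genotype effect that differed between treatments as a DAR of the interaction, near the 10.4% of all tested peaks. Of these, 6 were negative and 3 positive, where all tested peaks gave 4.6% and 5.84%. This split of all tested peaks rested on the scaling, with 8020 negative and 10170 positive by edgeR with TMM and 9947 and 8406 by DESeq2. The negative member interactions were at Alox5 (5.2 and 9.0 kb), Ltc4s (11.2 kb), Lta4h (6.0 and 17.7 kb upstream) and the Mgst2 start site. The positive ones were at Alox5ap (4.0 kb upstream), Cysltr1 (7.6 kb) and Cysltr2 (31.6 kb), and at each of these 3 peaks AhR-KO was lower without LPS. At each of the 6 negative peaks except the Alox5 peak at 5.2 kb, the unstimulated mean was higher in AhR-KO. The interaction subtracts the unstimulated difference, so choosing peaks by it favors these signs by construction.

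**Figure D5:**
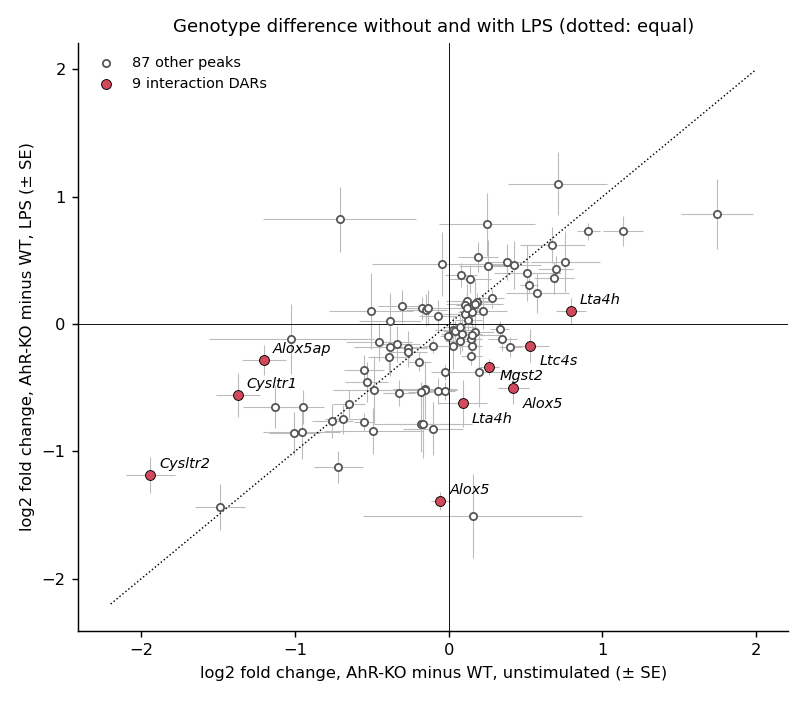
Log2 difference between AhR-KO and WT without LPS (x axis) and with LPS (y axis), each ± SE, for the 96 tested member peaks, with the 9 interaction DARs filled and named by gene. The Alox5 peak furthest below the dotted line of equal differences is at −0.05 without and −1.39 with LPS.

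Genes around the pathway were read in the same way from a list of 13, covering phospholipase A2, transporters, leukotriene-converting enzymes and related receptors. Their 192 tested peaks held 29 lower and 9 higher DARs of genotype without LPS, beside 12.6% and 9.96% of all tested peaks, and 20 and 20 with LPS, beside 13.1% and 13.4%. In either direction these were 19.8% and 20.8% of the list, against 22.6% and 26.5% of all tested peaks. LPS lowered 49 and raised 48 in WT, beside 21.6% and 25.4%, and lowered 43 and raised 55 in AhR-KO, beside 21.5% and 27.3%. Pla2g4a, the cytosolic phospholipase A2 that frees arachidonic acid, had more peaks that rose than fell with LPS, as 20 of its 42 tested peaks rose and 9 fell in WT, and 20 rose and 4 fell in AhR-KO. With LPS, 10 Pla2g4a peaks were higher and 3 lower in AhR-KO. The transporter Abcc1 had 8 lower and 1 higher genotype DARs among 26 tested peaks without LPS, and 4 and 2 with LPS. The transporter Abcc4 had 10 lower and 0 higher among 49 without LPS, and 6 and 2 with LPS, so that 20.4% and 16.3% of its tested peaks were genotype DARs. Interactions in the list were 4 negative and 20 positive, beside 4.6% and 5.84% of all tested peaks.

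For the Alox5 start-site peak, the start-site peaks of other genes with the most similar log2 levels over the 24 libraries were those of Eef2k (Pearson's r = 0.985), Myc (0.982), Klf8 (0.980), 4930523C07Rik (0.980) and Rgs7bp (0.978), among 12751 compared, where the median r was 0.274. For Ltc4s they were Camk1d (0.978), Smad1 (0.977), Itpr2 (0.976), Arhgap4 (0.976) and Reep5 (0.975), with a median of 0.331 over 12382. These values describe likeness over libraries that share groups and depth, and no p-value is given. At Eef2k, the levels were 46.1, 32.5, 18.2 and 10.6 CPM in unstimulated WT, unstimulated AhR-KO, WT with LPS and AhR-KO with LPS, beside 40.5, 27.7, 20.8 and 12.2 at Alox5.

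The motif content of the member windows was close to that of all windows of 300 bases. The AhR core GCGTG was present in 20.8% of the 96 member windows and in 16.3% of 174102 windows over tested peaks. AP-1 was in 21.9% and 18.1%, the PU.1 core in 20.8% and 19.5%, C/EBP in 18.8% and 15.8%, and NF-kB in 0.0% and 1.81%. Of the 20 member windows whose peak was a lower DAR in AhR-KO in either treatment, 2 held the AhR core in these 300 bases. A match of letters is not a binding site, and no match says only that the letters are not in the window.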

How the data were processed

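ATAC-seq was measured in 24 libraries of mouse BMDMs, 6 per group. The authors ran nf-core atacseq 1.2.1 on mm10 (base calls by bcl2fastq 2.20.0) and deposited 2 kinds of file. The first holds raw read pair counts per consensus peak for all libraries, which per the file header were counted by featureCounts 2.0.1 with a minimum overlap fraction of 0.2, a pair being counted in every peak it overlaps. The second is the broad peak list of each library from MACS2, whose deposited q-values are given as −log10 q. The lists served here only to count libraries with a call (1 base of overlap), and their lowest −log10 q was 1.0 to 1.03. The aligner is not given in the sources used here. The starts in the count table equal the 0-based starts of the broad peaks, so 1 was added.

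Groups and replicate numbers came from the labels. Counts were fitted with edgeR 4.0.16 in R 4.3.3 (filterByExpr by group, TMM, robust quasi-likelihood F-test, 1 fit of all 24 libraries by group, Benjamini-Hochberg over all 174193 tested peaks). A DAR changed at least 1.5-fold with an adjusted p not above 0.05. SEs were taken as the log2 fold change divided by the square root of F. P-values measure the spread between libraries. Totals of 8536838 to 34598345 pairs set the precision, and the typical SD of log2 CPM within a group was 0.206 (median over the tested member peaks). Tables were made with Python 3.11.15 and pandas 2.3.3. The fit was tested on simulated data.

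Members and lists were chosen with earlier results of these data known. The peaks named were those over a member's start site, for each member and comparison the DAR of smallest p in each direction, and every interaction DAR. A few others (the Alox5 peaks at −1.5, 33.1, 37.7, 43.4 and 55.3 kb and the Alox5ap peak at 7.9 kb) were named after their values were seen. Likeness was read for Alox5 and Ltc4s over start-site peaks of genes on other chromosomes. RefSeq promoter windows (GRCm38.p6) were matched for 6 of the 9 members, not for Alox5ap, Ltb4r2 or Cysltr1. Alternatives were RLE size factors, DESeq2 1.42.0, no filter, a replicate block, other fold thresholds, other rules for giving peaks to genes, plain CPM for the sums, and leaving out each library or replicate number. The B cell marker list and the sequence of the Alox5 peak at 30 kb are not reported here.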

Additional observations from a re-analysis of the deposited data

Results flagged for a closer look

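In 12 of the 156 groups of 6 libraries at the named peaks, 1 library lay far from the other 5 relative to the range of the group. Chance flags about 1 in 20 such groups. At Ltc4s, the start-site peak was at 53.1 CPM in WT LPS replicate 2 against 42.6 to 46.3 in the other WT LPS libraries. The Ltc4s peak at 11.2 kb was at 6.39 CPM in WT unstimulated replicate 5 (others 4.74 to 5.34) and at 4.10 CPM in AhR-KO LPS replicate 5 (others 2.58 to 2.83). The Ltc4s peak 13.9 kb upstream was at 0.788 CPM in AhR-KO unstimulated replicate 3 (others 1.27 to 1.51). At Lta4h, the start-site peak was at 34.7 CPM in AhR-KO LPS replicate 5 (others 31.5 to 32.4), and the peak at 47.3 kb was at 1.57 CPM in AhR-KO unstimulated replicate 2 (others 0.964 to 1.09).

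Among the receptors, the Cysltr2 peak at 7.3 kb was at 7.05 CPM in AhR-KO unstimulated replicate 3 (others 4.70 to 5.33) and the one at 31.6 kb at 2.00 CPM in AhR-KO unstimulated replicate 5 (others 0.980 to 1.36). The Cysltr1 peak 18.9 kb upstream was at 1.36 CPM in AhR-KO unstimulated replicate 3 (others 0.910 to 1.03). The Ltb4r1 peak at 6.3 kb was at 3.14 CPM in WT unstimulated replicate 5 (others 1.98 to 2.13). For the synthesis genes, the Alox5 peak at 11.4 kb was at 3.69 CPM in AhR-KO LPS replicate 3 (others 0.772 to 1.86) and the Mgst2 peak at 36.9 kb was at 3.28 CPM in WT LPS replicate 4 (others 2.19 to 2.58).

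The genotype effect differed between treatments, by the test of the interaction and past the fold threshold, at 9 peaks. The log2 interaction was −1.34 at the Alox5 peak at 5.2 kb, −0.93 at the Alox5 peak at 9.0 kb, −0.70 at the Ltc4s peak at 11.2 kb, −0.71 and −0.70 at the Lta4h peaks 17.7 and 6.0 kb upstream, and −0.60 at the Mgst2 start site. It was 0.92 at the Alox5ap peak 4.0 kb upstream, 0.82 at the Cysltr1 peak at 7.6 kb and 0.76 at the Cysltr2 peak at 31.6 kb. Edge cases were the Lta4h peak 17.7 kb upstream (adjusted p = 0.0419 by edgeR) and the Mgst2 start site, whose interaction lay nearest to the fold threshold.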

How the results depend on the processing

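Of the DARs at the named peaks, 80 of 101 were kept under every refit, 21 were lost under at least 1, and 0 named calls changed sign. Another 14 peak and comparison pairs became DARs under at least 1 refit. The counts of member DARs stayed within 1.5 times under RLE size factors, DESeq2, no filter and both replicate blocks, and the sums per gene moved by less than 1 SD under plain CPM. The Lta4h peak 8.8 kb upstream became an interaction DAR under RLE and DESeq2 (both −0.63) and without the filter (−0.59). Counts below are lower then higher DARs in AhR-KO without LPS and with LPS, then falling and rising with LPS in WT and in AhR-KO, then negative and positive interactions. With a fold of at least 2 they were 6 and 2, 5 and 1, 9 falling in WT, 16 and 10 in AhR-KO, and 1 and 0 for the interaction. With no fold threshold they were 19 higher without LPS, 33 and 17 with LPS, 44 falling in WT and 15 negative interactions. For the gene body or 5 kb upstream they were 1 higher without LPS, 10 and 4 with LPS, 17 and 2 in WT, 21 and 7 in AhR-KO and 3 negative interactions. For 50 kb either side they were 20 and 17 without LPS, 17 higher with LPS, 49 and 29 in WT, 58 and 37 in AhR-KO, and 12 and 7. Where the nearest start site had to be that of a member, 8 rose with LPS in WT. The changes of fold or window alter by construction how many peaks can count.

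Over the 30 fits that left out libraries, the counts ran from 11 to 14 lower and 7 to 10 higher without LPS, 16 to 19 and 5 to 8 with LPS, 27 to 30 falling and 10 to 15 rising in WT, 34 to 39 and 17 to 20 in AhR-KO, and 4 to 9 negative and 2 to 4 positive interactions. The medians ran from −0.01 to 0.05, −0.14 to −0.08, −0.23 to −0.13, −0.38 to −0.32 and −0.11 to −0.06. The labels tie no replicate number to an animal, so whether same-numbered libraries share one is not given. Libraries were to be taken as paired only if every same-numbered pair correlated at over 0.1, which was not met. Same-numbered libraries of WT with and without LPS correlated at over 0.1 in 5 of 6 pairs, those of AhR-KO in 2 of 6, and 4 and 3 of the 6 correlated best with their own number. The shortage of Y-linked read pairs in WT replicate 6 of both treatments is a hint from the data, not the design, that this number may be shared. With the replicate block the call was the same for 195 of 195 pairs of named peak and comparison, and the counts of member DARs were 12 lower and 9 higher without LPS and 18 and 7 with LPS. With the block within genotype, the Mgst2 peaks at 21.9 kb (0.66, LPS in WT) and 5.3 kb upstream (1.53, interaction) became DARs. Simulated data for the unstimulated comparison (174193 peaks) had this depth, spread and number of libraries, which were not separated. Of the peaks set to a 1.5-fold change 26.9% were called, with 68.7% at 2-fold and 92.4% at 3-fold. Only 67, 67 and 66 peaks were changed at these folds, where the data gave 39366 DARs. The adjusted p is stricter when few peaks change, so these rates do not measure detection in the data.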
